A study of Mus musculus with 2 samples.

Results

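The 8 troponin genes of the mouse were followed in the ventricles of Fendrr KO and wild-type (WT) embryos: the cardiac genes Tnnt2, Tnni3 and Tnnc1, the slow skeletal genes Tnnt1 and Tnni1, and the fast skeletal genes Tnnt3, Tnni2 and Tnnc2. They were taken by symbol from a table of 23276 gene symbols, and all 8 had a row. The KO embryos lacked Fendrr, a long non-coding RNA gene, on both alleles after homologous recombination, and the WT embryos carried both. Both kinds were made by tetraploid complementation of embryonic stem cells of C57BL/6 x 129SV background, in which the embryo proper comes from the stem cells, and were taken at E12.5. For either genotype, 4 ventricles were pooled and their total RNA, after removal of ribosomal RNA, was made into 1 stranded library. No difference therefore has a replicate check or a test, and "higher" and "lower" compare these 2 libraries. Values are in FPKM, fragment numbers scaled to transcript length and to the size of the library.

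Troponin is the calcium switch of the thin filament in striated muscle. Troponin C binds calcium, troponin I holds back the actin-myosin interaction until it does, and troponin T ties both to tropomyosin. Each subunit is encoded by paralogs for cardiac, slow and fast muscle, and the heart shares its troponin C with slow muscle. The fetal mouse heart uses the slow skeletal troponin I together with the cardiac form, and after birth the slow form is replaced by the cardiac one. Tnnt2 is also spliced into fetal and adult forms, which a value per gene cannot separate.

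The libraries came from separate sequencing runs, of which the WT run was stopped early and had its bases called by hand, so genotype and run cannot be told apart. Fendrr itself, named 1110050K14Rik in the table, was at 0 FPKM in the KO and the WT library, so its row gave no check of the genotype. Absolute depth is unknown; the spacing of the lowest values puts the KO library at 1.26 times the depth of the WT library, provided that the scaling used every mapped fragment. All 9 markers of ventricular cardiomyocytes were above 10 FPKM in both libraries, with Myl2, the ventricular regulatory light chain gene, at 9478 FPKM in KO and 9103 FPKM in WT. Of these 9, 6 had log2 ratios under the all-gene median. They were the light chain gene Myl3 (-0.69), Mybpc3 (-0.39), the transcription factor genes Nkx2-5 (-0.36) and Irx4 (-0.35), Ryr2 (-0.14) and Hey2 (-0.14). The other 3 were above it: Myh7 (0.21), Actc1 (0.10) and Myl2 (0.06). For the 9 markers the middle log2 ratio was -0.14. The log2 ratio of KO over WT, computed as log2((KO + 1)/(WT + 1)), had a median of -0.11 over the 11349 genes that averaged 1 FPKM or more, called expressed here. A gene at the centre of the distribution was thus slightly lower in KO. The Y-linked gene Ddx3y, chosen after its values were seen, was at 0.786 FPKM in KO and 17.7 FPKM in WT. The 6 markers of liver and yolk sac summed to 21.4 FPKM in KO and 0.685 FPKM in WT. Only 2 of these 6 were expressed, and most of the KO sum was Afp, at 16.6 FPKM in KO and 0.110 FPKM in WT. The 6 markers of endocardial cushion and fibroblasts, of which 5 lay above the median of all genes, summed to 558 FPKM in KO and 456 FPKM in WT. The part of these differences in the troponin values was not tested.

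The comparison asked whether troponin RNA differs in the ventricle without Fendrr. The subunits did not move together: the cardiac troponin T gene Tnnt2 was higher in the KO library, while both main troponin I genes and the troponin C gene Tnnc1 were lower. None of the 7 expressed troponin genes was 2-fold apart. A 2-fold excess in KO was seen for 0.467% of all 11349 expressed genes, and a 2-fold deficit for 0.388%. At a limit of 1.5-fold Tnni3 alone of the 7 was lower, against 3.6% of all genes, and none was higher, against 1.54% of all genes. The median log2 ratio of the 7 genes was -0.17, with a range of -0.77 to 0.51, and 4 of them lay below the median of all genes. In bulk tissue, fewer cardiomyocytes and less of an RNA per cardiomyocyte cannot be told apart.

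**Figure D1:**
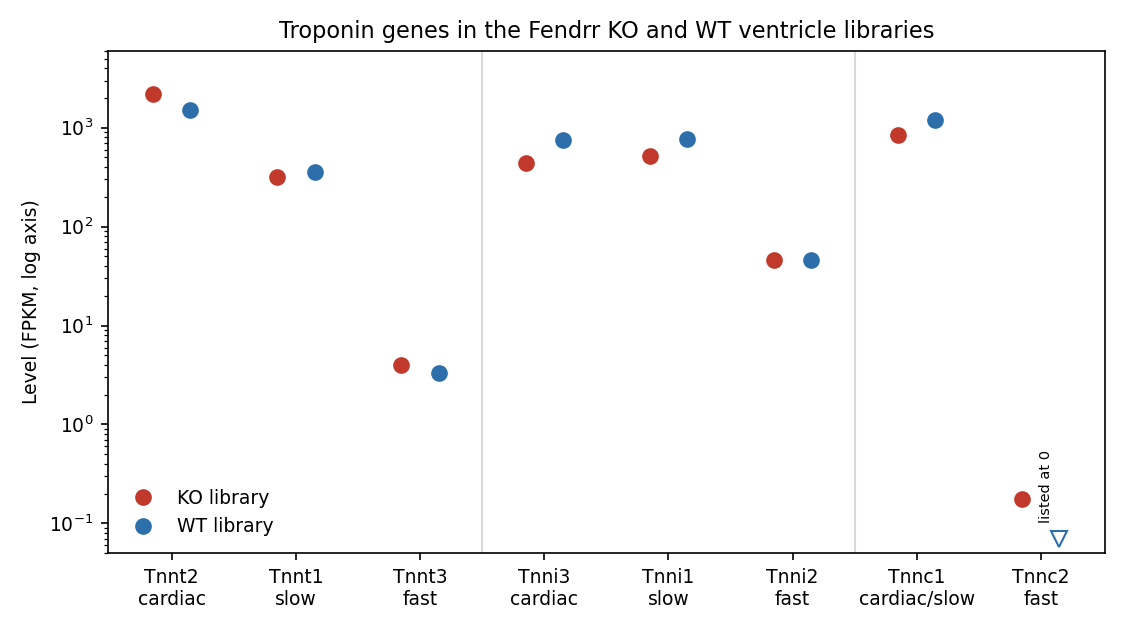
Level of each troponin gene in FPKM on a log axis, with the KO library left of the WT library and genes grouped as troponin T, I and C. One point is 1 library of 4 pooled ventricles. Tnnt2 lies higher in KO (2174 against 1524 FPKM), Tnni3, Tnni1 and Tnnc1 lie lower, and Tnnc2 is listed at 0 in WT.

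Both main troponin I genes were lower in KO. As deposited, Tnni3 had the log2 ratio furthest from 0 among the expressed troponins; with median centring, upper quartile scaling or equal totals that of Tnnt2 was further. Tnni3, which encodes the adult cardiac form, was at 443 FPKM in KO and 753 FPKM in WT, so that the KO level was 0.588 times the WT level and the log2 ratio was -0.77. Tnni1, the slow skeletal form of the fetal heart, was at 516 FPKM in KO and 760.3 FPKM in WT, which is 0.679 times the WT level and a log2 ratio of -0.56. The cardiac form was lower by more. There were 1.17 Tnni1 transcripts for each Tnni3 transcript in KO on the FPKM scale, against 1.01 in WT. The ventricle at this stage thus carried both troponin I RNAs in similar amounts in either library. The rank of Tnni3 among all 23276 genes was 118 in KO and 65 in WT, and that of Tnni1 was 90 in KO and 60 in WT.

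The proteins of these paralogs differ at their start, where the cardiac form has an extension that protein kinase A phosphorylates during adrenergic stimulation. The coding sequences are shown from the start codon to the end of the 42-base coding exon that all 3 genes share in length, as annotated in GENCODE vM21 on GRCm38 for the principal transcript. Capitals mark codons 23 and 24 of Tnni3, counted from 1 at the start codon, which are the paired serine codons that directly follow arginine codons.
Tnni3, chromosome 7, minus strand: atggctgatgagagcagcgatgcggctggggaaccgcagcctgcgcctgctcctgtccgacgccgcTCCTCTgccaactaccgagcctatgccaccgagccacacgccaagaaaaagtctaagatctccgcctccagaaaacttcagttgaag
Tnni1, chromosome 1, plus strand: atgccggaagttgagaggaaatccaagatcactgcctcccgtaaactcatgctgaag
Tnni2, chromosome 7, plus strand: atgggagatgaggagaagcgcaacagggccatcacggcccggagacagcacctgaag
Tnni3 has 153 coding bases up to this point, against 57 in Tnni1 and 57 in Tnni2. A coding exon of 87 bases, the third of Tnni3, has no counterpart of that length in Tnni1 or Tnni2. The following exons run in step, with 132, 90 and 177 coding bases in Tnni3 and Tnni1, and 129, 90 and 177 in Tnni2.

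The annotated transcripts of the paralogs share no stretch as long as a read. Over aligned bases the coding sequences of Tnni3 and Tnni1 were 68.5% identical, those of Tnni3 and Tnni2 70.4% and those of Tnni1 and Tnni2 71.3%. The 3 troponin T pairs were 70.5 to 71.0% identical, and Tnnc1 and Tnnc2 70.4%. Over all annotated transcripts the longest identical run was 22 bases, between Tnni1 and Tnni2, against a read length of 100 bases, and none of the 7 pairs within a family shared a run of that length.

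Troponin T differed in the other direction and between its paralogs. Tnnt2, the cardiac troponin T gene, was at 2174 FPKM in KO and 1524 FPKM in WT, which is 1.43 times the WT level and a log2 ratio of 0.51. It was the most abundant troponin in both libraries, ranking 10 among all genes in KO and 16 in WT. Tnnt1, the slow skeletal troponin T gene, was at 316 FPKM in KO and 356 FPKM in WT, a log2 ratio of -0.17 that lies near the median of all genes. Its direction depends on the scaling, since quantile normalization put it at 0.0085. There were 6.88 Tnnt2 transcripts for each Tnnt1 transcript in KO, against 4.28 in WT. The values of Tnnt2 and Tnnt3 in both libraries, and that of Tnni1 in KO, are written with more than 6 significant digits, as are those of 18.4% of expressed genes in 1 or both libraries. Whether these are sums over several transcripts is not given in the sources used here. Those genes had a median log2 ratio of -0.10, against -0.11 for the others.

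Troponin C RNA came almost wholly from Tnnc1, which encodes the calcium-binding subunit of heart and slow muscle. Tnnc1 was at 847 FPKM in KO and 1209 FPKM in WT, so that the KO level was 0.701 times the WT level and the log2 ratio was -0.51. Its fast skeletal paralog Tnnc2 was at 0.176 FPKM in KO and listed at 0 in WT, too low for a fold, and it is the member that did not reach a mean of 1 FPKM. Tnnc1 made up 99.98% of troponin C in KO and all of it as listed in WT.

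The fast skeletal genes were measured at very different levels, with Tnni2 far above its partners. Tnni2, the fast troponin I gene, was at 46.3 FPKM in KO and 45.7 FPKM in WT, a log2 ratio of 0.02. Tnnt3, the fast troponin T gene, was at 3.99 FPKM in KO and 3.34 FPKM in WT, a log2 ratio of 0.20. The libraries therefore differed little in Tnni2 as deposited, and Tnni2 exceeded Tnnt3 by 11.6 times in KO and 13.7 times in WT. Some structural markers of skeletal muscle were measured at comparable levels, while other structural markers and the myogenic factors were at or near 0. The myosin heavy chain genes Myh1, Myh2, Myh3, Myh4 and Myh8 stayed under 1 FPKM in both libraries, as did Atp2a1 and Pvalb. The fast light chain gene Mylpf was at 4.75 FPKM in KO and 6.88 FPKM in WT, above Tnnt3 in both libraries. Myl1 was at 67.7 FPKM in KO and 44.6 FPKM in WT, and Ckm at 84.6 FPKM in KO and 45.8 FPKM in WT. Of 22 marker genes with a row, 6 were listed at 0 in KO and 8 in WT, among them Myf5 and Myf6 in both, and the myogenic factor gene Myog was at 0.123 FPKM in KO and 0.103 FPKM in WT. The marker sum was 159.6 FPKM in KO and 99.3 FPKM in WT, and Ckm and Myl1 made up most of it. Ckm and Myl1 were set apart after their values were seen and are not confined to skeletal muscle. Without them the other 20 markers summed to 7.26 FPKM in KO and 8.86 FPKM in WT, most of it from Mylpf, and 18 of the 20 stayed under 1 FPKM in both libraries. The part of skeletal muscle cells in the fast troponin values was not tested.

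The order of the 8 levels was the same in both libraries: Tnnt2, Tnnc1, Tnni1, Tnni3, Tnnt1, Tnni2, Tnnt3 and Tnnc2. The closest neighbours in that order were Tnni1 and Tnni3 in WT, at 760.3 and 753 FPKM, and with 1 library no spread is available to separate them.

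Summed over paralogs, troponin T was higher and troponin I and C were lower in KO. The troponin T genes summed to 2494 FPKM in KO and 1884 FPKM in WT, 1.32 times the WT sum. The troponin I genes summed to 1005 FPKM in KO and 1559 FPKM in WT, 0.645 times the WT sum. The troponin C genes summed to 848 FPKM in KO and 1209 FPKM in WT, 0.701 times the WT sum. These opposite differences nearly cancelled, and the 8 genes together were at 4347 FPKM in KO and 4651 FPKM in WT, which is 1.30% of the summed FPKM in KO and 1.26% in WT. Ratios within a library do not change when the library is multiplied by a number. On that measure there were 2.48 troponin T transcripts for each troponin I transcript in KO, against 1.21 in WT. Troponin T over troponin C was 2.94 in KO and 1.56 in WT. Troponin I over troponin C was 1.19 in KO and 1.29 in WT, so these 2 subunits kept more nearly the same proportion than either did with troponin T.

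**Figure D2:**
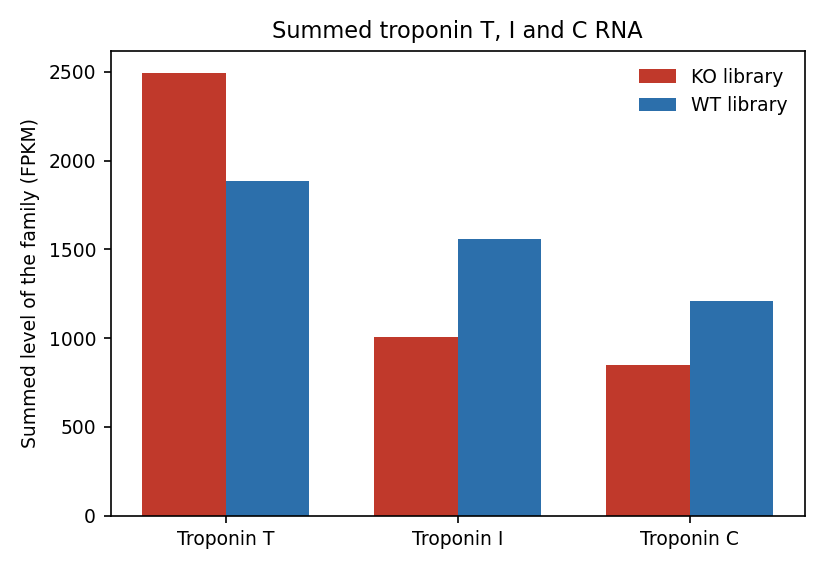
Summed FPKM of the genes of troponin T, I and C, with the KO library left of the WT library; bars start at 0 and each stands for 1 library. Troponin T is higher in KO (2494 against 1884 FPKM), and troponin I (1005 against 1559 FPKM) and C (848 against 1209 FPKM) are lower.

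Within each family the paralogs held different shares of the sum in the 2 libraries. Tnni3 made up 44.0% of troponin I in KO and 48.3% in WT, a difference of -4.27 percentage points. Tnni1 made up 51.4% in KO and 48.8% in WT, and Tnni2 4.61% in KO and 2.93% in WT. The slow form thus held the larger share in both libraries, by a wider margin in KO. In troponin T, Tnnt2 made up 87.2% in KO and 80.9% in WT, a difference of 6.25 percentage points, and Tnnt1 12.7% in KO and 18.9% in WT. Tnnt3 was 0.160% of troponin T in KO and 0.177% in WT. The cardiac paralog therefore held more of troponin T but less of troponin I in the KO library. Added over troponin T and I, the cardiac genes were at 2616 FPKM in KO and 2277 FPKM in WT, and the slow skeletal genes at 832 FPKM in KO and 1116 FPKM in WT.

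**Figure D3:**
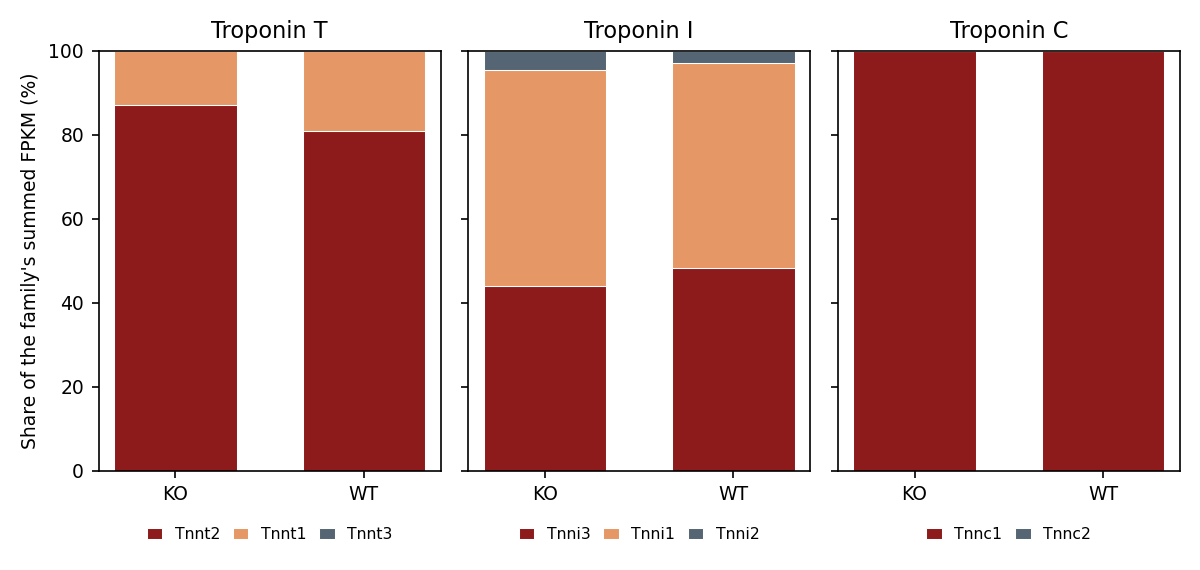
Share of each paralog in the summed FPKM of troponin T, I and C, in percent, with the KO library left of the WT library in each panel. Dark red marks the cardiac gene (for troponin C, the cardiac and slow gene), orange the slow skeletal and dark grey the fast skeletal gene. Tnni1 and Tnni3 divide troponin I nearly evenly, and Tnnt2 takes most of troponin T.

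Set among all genes, Tnni3 and Tnnt2 lay toward opposite edges and the others nearer the centre. Of the 11349 expressed genes, 95% had log2 ratios between -0.64 and 0.49. Tnni3 lay below that range, with 121 genes (1.07%) at or below its ratio, and Tnnt2 above it, with 250 genes (2.20%) at or above. Tnni1 had 487 genes (4.29%) and Tnnc1 648 genes (5.71%) at or below. Among the 525 genes averaging 100 FPKM or more, where the most abundant troponins lie, the median was -0.18 and 95% fell between -0.76 and 0.52. Tnnt2 lay just inside this range and Tnni3 just below it. Of these 525, 14 were at or below Tnni3 and 15 at or above Tnnt2, each count including the gene itself. With the median of all genes brought to 0, the log2 ratios were -0.64 for Tnni3, -0.43 for Tnni1, -0.38 for Tnnc1 and 0.64 for Tnnt2.

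**Figure D4:**
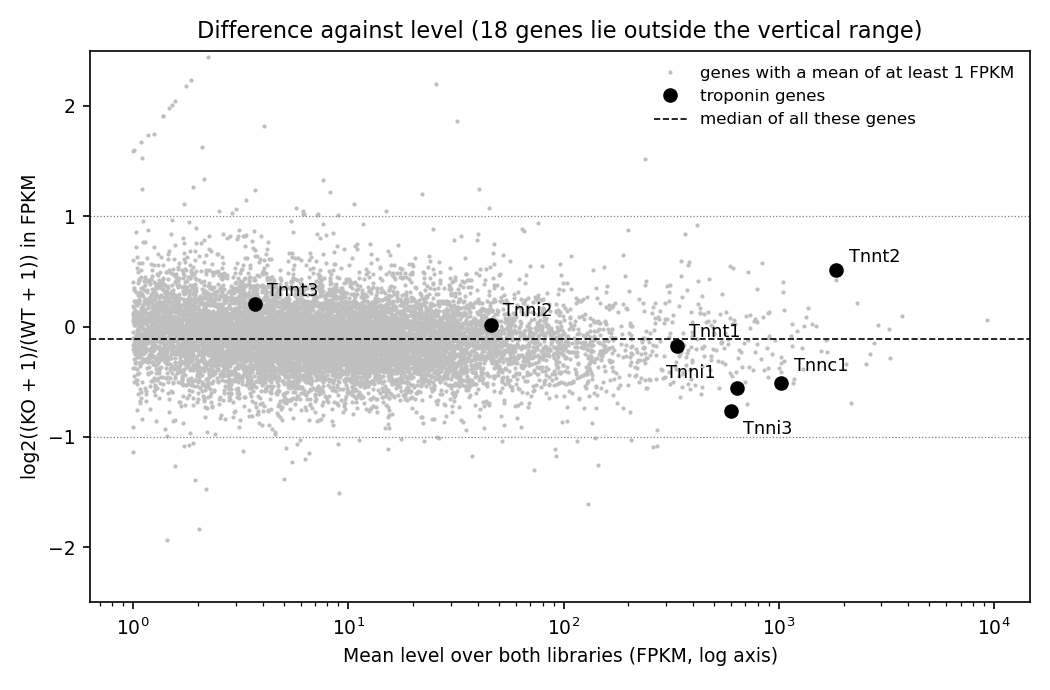
log2((KO + 1)/(WT + 1)) of every expressed gene (mean of 1 FPKM or more) against its mean level on a log axis, 1 point per gene; 18 genes lie outside the vertical range. The dashed line is the median of all these genes and dotted lines mark 2-fold. Tnni3, Tnni1 and Tnnc1 lie below the median and Tnnt2 above it at similar high levels, all inside the 2-fold lines.

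Genes of similar median annotated transcript length and base composition to the troponins had medians close to that of all abundant genes. Averaging 100 FPKM or more, the 126 genes with a median annotated transcript length of 200 to 600 bases, which include Tnni3, had a median log2 ratio of -0.19. The 154 genes of 600 to 800 bases, which include Tnni1, Tnnt1 and Tnnc1, had a median of -0.20. The 43 genes of 1000 to 1300 bases, which include Tnnt2, had one of -0.13. For Tnni3, Tnni1, Tnnt1 and Tnnc1 the principal transcript is longer than this median length, at 912, 1150, 1027 and 721 bases. That of Tnnt2 has 1097 bases, and the principal Tnni1 and Tnnt1 transcripts also fall in the range of 1000 to 1300 bases. The 94 genes of 800 to 1000 bases, the range of the principal Tnni3 transcript, had a median log2 ratio of -0.23. By GC content, the 161 genes of 50 to 55%, with Tnnt1 and Tnnc1, and the 98 genes of 55 to 60%, with Tnnt2, Tnni1 and Tnni3, both had medians of -0.21. The 10th and 90th percentiles were -0.49 and 0.16 for 50 to 55%, and -0.69 and 0.27 for 55 to 60%. For the 200 to 600 base range they were -0.64 and 0.32. The part of either property in a single gene's ratio was not tested.

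The promoters of the 4 genes that lay furthest from the median are shown because Tnni3, Tnni1 and Tnnc1 were lower while Tnnt2 was higher. Each is the 250 bases before the annotated start, from RefSeq on GRCm38.p6, a different build from the mm9 of the values, read 5′ to 3′ on the gene's strand. Capitals mark, on either strand, the AGATAA form of the site of GATA factors, the MCAT site of TEAD factors, spelled CATTCC, and any TATA box or MEF2 site.
Tnnt2, chr1:135836084-135836333, plus strand: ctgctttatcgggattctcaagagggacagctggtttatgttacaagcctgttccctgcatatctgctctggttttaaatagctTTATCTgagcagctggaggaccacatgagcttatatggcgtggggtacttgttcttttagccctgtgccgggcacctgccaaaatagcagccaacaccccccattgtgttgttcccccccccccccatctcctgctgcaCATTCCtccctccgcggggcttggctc
Tnni3, chr7:4522529-4522778, minus strand: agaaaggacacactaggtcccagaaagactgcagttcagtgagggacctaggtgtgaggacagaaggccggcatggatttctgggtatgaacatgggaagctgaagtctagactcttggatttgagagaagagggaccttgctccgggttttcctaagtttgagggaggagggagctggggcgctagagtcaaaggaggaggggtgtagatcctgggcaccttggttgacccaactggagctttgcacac
Tnni1, chr1:135799171-135799420, plus strand: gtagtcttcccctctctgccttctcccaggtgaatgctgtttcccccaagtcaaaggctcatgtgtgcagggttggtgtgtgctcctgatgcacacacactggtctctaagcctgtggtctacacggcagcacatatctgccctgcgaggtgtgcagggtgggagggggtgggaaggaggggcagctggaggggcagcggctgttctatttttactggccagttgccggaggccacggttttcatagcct
Tnnc1, chr14:31208062-31208311, plus strand: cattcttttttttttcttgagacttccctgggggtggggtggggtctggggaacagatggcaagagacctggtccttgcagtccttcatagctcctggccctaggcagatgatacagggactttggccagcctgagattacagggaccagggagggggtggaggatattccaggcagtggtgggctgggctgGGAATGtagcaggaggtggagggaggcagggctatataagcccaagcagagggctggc
Tnnt2 and Tnni1 each have 2 annotated windows, of which the first is printed. The 2 Tnni1 windows overlap, so a match in their shared bases counts in both. The printed Tnnt2 window held AGATAA on the opposite strand at 166 to 161 bases before the start, a form found in 9.99% of 32851 windows of the same length. It also held CATTCC at 27 to 22 bases before the start, and the Tnnc1 window held CATTCC on the opposite strand at 58 to 53, against 12.6% of all windows. The second Tnnt2 window held neither. These matches overlap no other searched motif. The TATA box, spelled TATAAA and in 12.4% of all windows, was found in the Tnnt1 window and in none of the other 7 windows of the 6 troponin genes with a window. Other spellings, such as the tatataa in the printed Tnnc1 window, were not searched. Neither the other searched form of the GATA site, TGATAA (7.94% of all windows), nor the searched forms of the MEF2 site were among the letters of the 8 windows, which says nothing of whether a factor binds. The looser CANNTG (E box) was in 8 of 8 windows, against 66.2% of all windows, and a loose outline of the CArG box bound by Srf in 6 of 8, against 67.1%.

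Troponin genes lie in pairs of a troponin I and a troponin T gene, and pair partners differed in their ratios. By RefSeq order on GRCm38, Tnni1 and Tnnt2 lie on chromosome 1 with Lad1 between them. Tnni1 was lower (log2 ratio -0.56) and Tnnt2 higher (0.51) in KO, while Lad1 was at 0.366 FPKM in KO and 0.409 FPKM in WT. Tnnt1 and Tnni3 are direct neighbours on chromosome 7, with log2 ratios of -0.17 and -0.77. Ppp1r12c, on the other side of Tnnt1, was at 11.3 FPKM in KO and 11.7 FPKM in WT, and Dnaaf3, next to Tnni3, was at 0.167 FPKM in KO and 0.0698 FPKM in WT. Tnni2 and Tnnt3 lie elsewhere on chromosome 7, with Lsp1 and Prr33 between them. Lsp1 was at 44.1 FPKM in KO and 34.8 FPKM in WT, and Prr33 had no row. Mrpl23, beyond Tnnt3, was at 68.0 FPKM in KO and 82.2 FPKM in WT. H19, which lies further along in the same region and was chosen after its values were seen, was at 41.9 FPKM in KO and 1360 FPKM in WT, while Tnni2 and Tnnt3 did not show a difference of that size. On chromosome 14, Tnnc1 lies between Nisch, at 28.1 FPKM in KO and 26.6 FPKM in WT, and Sema3g, at 0.511 FPKM in KO and 0.580 FPKM in WT. Phf7, beyond Sema3g, was at 1.44 FPKM in KO and 2.77 FPKM in WT, a log2 ratio of -0.63. On chromosome 2, Tnnc2 lies between Ube2c, at 46.8 FPKM in KO and 45.7 FPKM in WT, and Snx21, at 2.72 FPKM in KO and 5.33 FPKM in WT, a log2 ratio of -0.77.

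The other thin filament genes spanned a narrower range than the troponins. Of 14 partners, which are actins, tropomyosins and the proteins that cap or measure the filament, 11 were expressed, with a median log2 ratio of -0.14 and a range of -0.43 to 0.10. None was 2-fold apart. Actc1, cardiac alpha-actin, was at 3857 FPKM in KO and 3605 FPKM in WT. Tpm1, the tropomyosin that troponin T binds, was at 3224 FPKM in KO and 3267 FPKM in WT. The furthest were Nebl, a nebulin relative, at 27.8 FPKM in KO and 37.7 FPKM in WT, and Tpm4 at 176 FPKM in KO and 212 FPKM in WT.

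The thick filament list held a gene with a ratio close to those of the troponin I genes. Of its 14 genes, 13 were expressed, with a median log2 ratio of -0.23, a range of -0.69 to 0.24 and none 2-fold apart. The ventricular essential light chain gene Myl3 was at 1651 FPKM in KO and 2671 FPKM in WT, a log2 ratio of -0.69. The regulatory light chain gene Myl2 was given above, and the atrial and fetal light chain gene Myl4 was at 2244 FPKM in KO and 2834 FPKM in WT. Mybpc3, cardiac myosin-binding protein C, was at 336 FPKM in KO and 439 FPKM in WT.

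**Figure D5:**
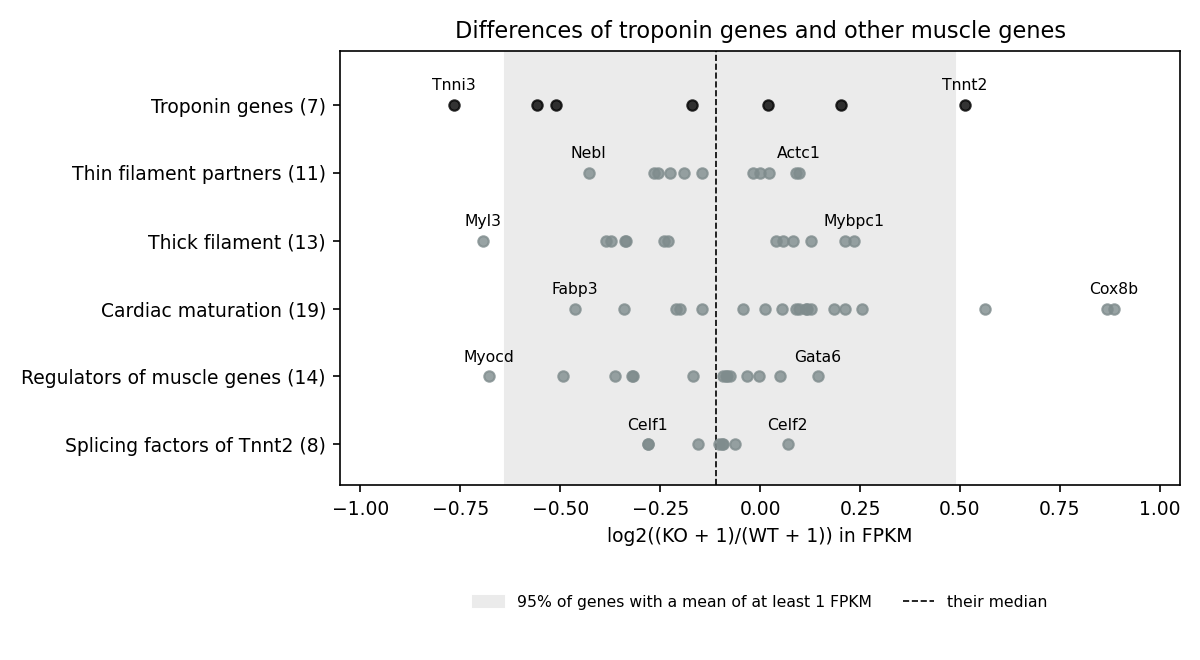
log2((KO + 1)/(WT + 1)) of the 7 expressed troponin genes and of the expressed genes of 5 other lists, 1 point per gene, with the number of genes beside each name and the lowest and highest gene labelled. The grey band holds 95% of all expressed genes and the dashed line is their median. Troponin genes run from Tnni3 at -0.77 to Tnnt2 at 0.51, both outside the band.

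Among genes averaging 100 FPKM or more, those with log2 ratios nearest to that of Tnni3 were the histone genes Hist1h1b, Hist1h2af, Hist1h4h and Hist1h4a and the spliceosome gene Snrpd2, all within 0.038 of it. Hist1h1b was at 149.6 FPKM in KO and 257 FPKM in WT, and Snrpd2 at 78.0 FPKM in KO and 129.8 FPKM in WT. With 2 libraries this likeness is that of a single ratio. Histone genes have near-identical copies, so the level of each is uncertain.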

How the data were processed

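Per the labels, 500 ng of total RNA from 4 pooled ventricles per genotype were depleted of ribosomal RNA, amplified by 15 PCR cycles and read for 100 bases from 1 end. The authors deposited 1 FPKM value per gene symbol and library, and the submitters' processing notes name the tools Cufflinks 2.0.2, Bowtie2 2.0.2 and TopHat2 2.0.6 and the build mm9. Which annotation and settings were used is not given in the sources used here. Depth is unknown, so no counting interval is given. Relative depth was the step at which 69.2% of 2213 genes under 0.3 FPKM had KO to WT ratios within 0.1% of ratios of whole numbers up to 10. The same check could not be made for Tnnc2, which was at 0 in WT.

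Differences were log2((KO + 1)/(WT + 1)), a scale that understates those of low genes, for genes averaging 1 FPKM or more (expressed genes). Shares and ratios used FPKM as deposited. No test was possible with 1 library per genotype. Named were all troponin genes, their neighbours and the 5 genes of mean at least 100 FPKM nearest in ratio to the furthest member. From each list the 2 most abundant and the 2 furthest genes were also named. Not every gene so chosen is printed, and some others are marked as chosen later. The ventricular markers Nkx2-5, Irx4, Hey2, Ryr2 and Myh7 were printed outside this rule. So were the skeletal markers Mylpf, Myog, Myf5, Myf6, Myh1, Myh2, Myh3, Myh4, Myh8, Atp2a1 and Pvalb. The members and lists were chosen with earlier results of these data known. Lengths and GC content were medians over GENCODE vM21 transcripts, for 93.1% of expressed genes. Coding sequences were aligned with Biopython 1.88, taking the principal transcript. Computations used Python 3.11.15, numpy 2.4.6, pandas 2.3.3 and matplotlib 3.10.9, and were tested on simulated data. Alternatives were other pseudocounts, minimum levels, fold limits and 5 scalings (median, upper quartile, trimmed mean, quantile, and equal totals without abundant genes).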

Additional observations from a re-analysis of the deposited data

How the results depend on the processing

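No paired analysis was possible because there was a single library on either side, and none could be dropped in turn. The count of troponin genes 2-fold apart was 0 in each direction under every alternative at that limit. At 1.5-fold the count of lower troponin genes was 1, also with each of the 5 scalings, and the count of higher ones was 1 (Tnnt2) with every scaling but quantile normalization, limits combined after seeing the data. The log2 ratios ranged over the pseudocounts and scalings from -0.77 to -0.62 for Tnni3, from -0.56 to -0.41 for Tnni1, from -0.51 to -0.36 for Tnnc1 and from 0.51 to 0.66 for Tnnt2. Tnnt1 changed sign under quantile normalization alone. With a pseudocount of 0.1 Tnnc2, under the minimum level, was at 1.46. The subunit ratios were run under quantile normalization alone, where troponin T over I was 2.46 in KO and 1.22 in WT. Isoform shares were run with fragments in place of FPKM and with quantile normalization. Those of the main troponin T and I genes were also run with fast genes left out. All these shares and ratios stayed within 1.5 times their value. That limit is wider than the KO to WT differences in the shares of Tnni3 and Tnnt2, so it cannot bear on them. By fragments Tnni3 was 38.3% of troponin I in KO and 42.3% in WT, and Tnni1 57.2% in KO and 54.7% in WT. Tnnt2 was then 90.4% of troponin T in KO and 85.5% in WT. For all genes, 98 were 2-fold higher and 98 lower at a pseudocount of 0.1 FPKM, and 16 higher and 17 lower at 5 FPKM, against 53 and 44 as reported, and 26 were higher at a minimum mean of 5 FPKM. After scaling, 27 genes were lower with trimmed means, upper quartiles or medians, and 26 with equal totals or quantiles. The genes higher were then 66 with trimmed means, upper quartiles or medians, 68 with equal totals and 62 with quantiles.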

Other observations

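A list of 19 genes that differ between fetal and adult heart holds both fetal and adult forms, so its count gives no direction of maturation. Of the 19, 14 lay above the median of all genes, with a median log2 ratio of 0.10, and none was 2-fold apart. Cox8b, a muscle form of a cytochrome oxidase subunit, was at 32.3 FPKM in KO and 17.1 FPKM in WT, and Ckm, muscle creatine kinase, at 84.6 FPKM in KO and 45.8 FPKM in WT. Nppa, the atrial natriuretic peptide gene of fetal ventricle, was at 2631 FPKM in KO and 2911 FPKM in WT. The next 5 genes were chosen after their values were seen. Nppb, the related brain natriuretic peptide gene, was at 116 FPKM in KO and 147 FPKM in WT, and Mb, myoglobin, at 179 FPKM in KO and 208 FPKM in WT. Myh7, the fetal and slow myosin heavy chain gene, was at 2486 FPKM in KO and 2146 FPKM in WT, and Myh6, the adult heavy chain gene of the mouse, at 596 FPKM in KO and 545 FPKM in WT. Fabp3, a fatty acid carrier of heart, was at 194 FPKM in KO and 267 FPKM in WT. Actc1 and Acta1 are in this list and in that of the thin filament, and Myh6 and Myh7 are also in that of the thick filament.

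Factors known to act on muscle genes or on Tnnt2 splicing had medians near that of all genes, at -0.09 for the regulators and -0.10 for the splicing factors. Of 14 expressed regulators, the coactivator gene Myocd was furthest, at 6.36 FPKM in KO and 10.8 FPKM in WT, followed by the nuclear receptor gene Esrra at 9.22 FPKM in KO and 13.4 FPKM in WT. Of 8 expressed splicing factors, log2 ratios ran from -0.28 to 0.07, with Rbm24 at 44.2 FPKM in KO and 47.5 FPKM in WT and Celf1 at 22.4 FPKM in KO and 27.5 FPKM in WT. Tnni3k, a cardiac kinase gene named for its binding to troponin I and chosen after its value was seen, was at 15.6 FPKM in KO and 13.9 FPKM in WT.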
